A study of Mus musculus with 4 samples.

Results

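Regulatory T (Treg) cells that carried Foxp3 transcript and lay outside mitosis were compared between the liver and the spleen of 7-week mice. Barcodes were kept with at least 500 detected genes and at most 10% mitochondrial unique molecular identifiers (UMIs, 1 for each captured transcript). They also had to hold at least 1 Foxp3 UMI and fewer than 8 UMIs summed over 9 mitotic genes (Ccnb1, Ccnb2, Cdc20, Cenpf, Ube2c, Tpx2, Birc5, Top2a and Mki67). These limits left 1414 liver cells and 3782 spleen cells, 5196 of the 8771 barcodes of the 7-week libraries and of 24546 in the series. Foxp3 and the 9 mitotic genes chose the cells, so their levels are no result here. Of the filtered barcodes, 60.2% in liver and 63.5% in spleen held a Foxp3 UMI, and the mitotic limit then removed 44 and 46 cells. At that limit, 5 liver and 4 spleen cells with 7 mitotic UMIs were kept, and 5 and 3 cells with 8 were left out. Of the kept cells, 83.8% in liver and 90.0% in spleen held no mitotic UMI. Cells called outside mitosis here are those below the limit.

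The cells came from C57BL/6 mice tagged with Foxp3GFP. CD4+ lymphocytes were selected on CD4 (L3T4) magnetic beads, and CD4+ Foxp3GFP+ cells were sorted by flow cytometry. The 12-day mice, used here for side-by-side values, are described as Foxp3GFP-Cre Rosa26loxP-Stop-loxP-YFP, in which Cre made by Foxp3-expressing cells switches on YFP, and this genotype is not given for the 7-week mice. For the 7-week samples the submitters wrote "aged" as the stage. The labels do not give the number of mice per library. There was 1 single-cell library (10x Genomics, read from the 5′ end of transcripts) for each age and tissue. No difference therefore has a replicate check, no p-value is given, and tissue, mouse and library cannot be told apart. Intervals are exact 95% intervals and cover counting error only.

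Foxp3 is the transcription factor that defines Treg cells, a CD4 T cell lineage that restrains immune responses. Resting Treg cells circulate through lymphoid organs with the chemokine receptor Ccr7 on their surface. Activated Treg cells take up other chemokine receptors and integrins, enter tissues such as the liver, and there can make repair factors and respond to cytokines of the IL-1 family and to interferons.

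The selected liver cells held 4598566 UMIs (median 2889 UMIs and 1246 genes per cell) and the spleen cells 13410247 (median 3117 and 1331). The median mitochondrial share was 1.17% in liver and 1.40% in spleen, and 7 barcodes occurred in both libraries. T cell markers (Cd3e, Cd3d, Cd3g, Trac, Cd4 and Lck) and Treg markers (Il2ra, Ctla4, Ikzf2, Tnfrsf18 and Izumo1r) were at 178 to 1316 CPM, the UMIs of a gene scaled to 1000000 UMIs per library, in both. Of markers of other cells, all 6 of stellate cells and fibroblasts were at 0 in liver, and 7 of 11 of macrophages and Kupffer cells were too. The macrophage markers summed to 3.04 CPM in liver and 16.7 in spleen, and those of hepatocytes to 13.9 and 0.447. The B cell marker Ms4a1 was at 0 in liver and at 0.149 CPM in spleen, while Ighm stood at 518 and 382. The monocyte and neutrophil set summed to 55.2 and 20.9 CPM, almost all of it Plac8 and Ly6c2, with S100a8, Csf3r, Retnlg and Ngp at 0 in both. Their part in the differences below was not tested beyond the alternatives without cells that hold such UMIs.

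Each library's UMIs were summed per gene over its cells and expressed as CPM. In such sums, fewer cells that express a gene and less RNA per cell cannot be told apart. Of the 5046 genes that reached 25 CPM in either library, 85 (1.68%) stood 2-fold or more above spleen in liver and 27 (0.535%) stood 2-fold or more below it, while 52.9% had a ratio above 1. Excluding ribosomal, mitochondrial and receptor segment genes from the totals gave 85 higher and 51 lower. Leaving out the 10 cells with most UMIs of each gene gave 57 higher and 40 lower, and there the median log2 ratio of all genes moved from 0.01 to -0.10. The liver library held fewer cells, so 10 cells are a larger part of it. The median log2 ratio over all 7660 genes with at least 10 CPM in either library was 0.01. At that level 143 genes (1.87%) were 2-fold or more above and 67 (0.875%) as far below, 51.8% lay above 0 and 48.2% below. These shares are the background for the gene lists below. The scatter of all genes shows where the 30 most different genes lie.

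**Figure D1:**
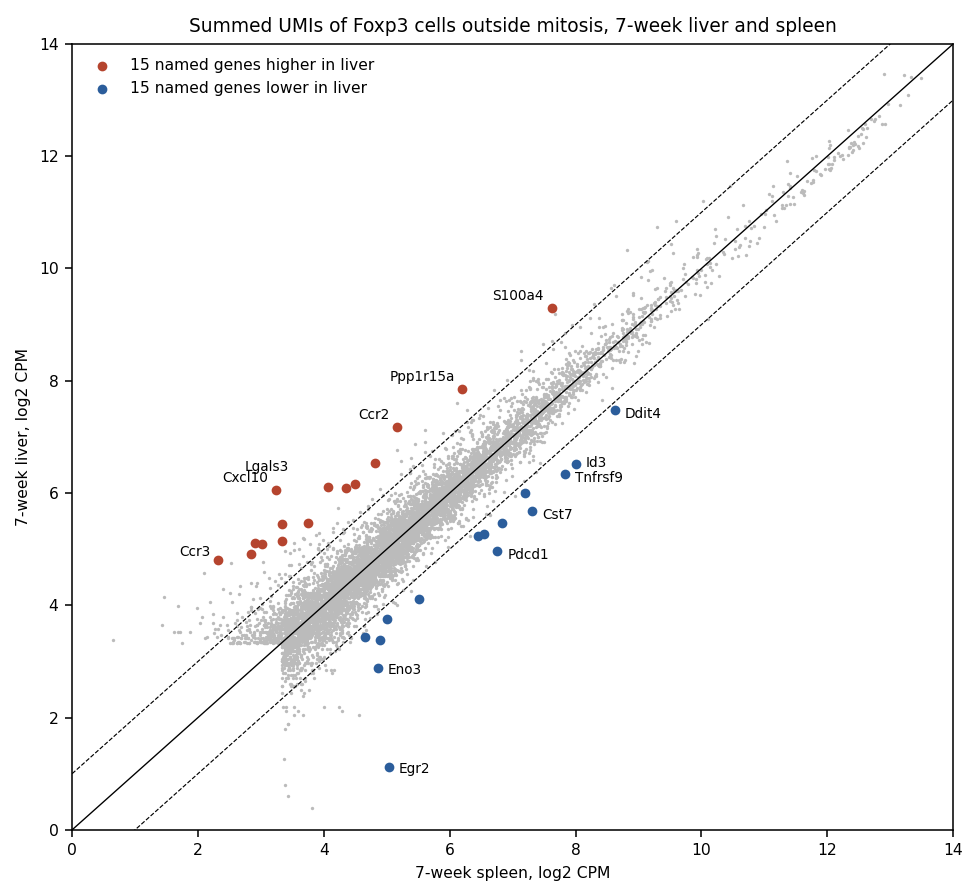
Level of each of 7660 genes in the 7-week spleen (x axis, log2 CPM) and liver (y axis, log2 CPM), summed over Foxp3 cells outside mitosis; red and blue points are the 15 highest and 15 lowest ratios, the solid line marks equal levels and the dashed lines 2-fold. Of the coloured points Egr2 lies furthest below the line, at 2.17 CPM in liver against 32.8 in spleen, and Cxcl10 and Ccr3 lie furthest above it.

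Among the genes with the highest ratios were receptors for chemokines and alarmins, effector proteins and an interferon-induced chemokine. The highest ratio among genes with 25 CPM and 100 UMIs or more in the higher library, receptor segments and unnamed genes left out, was that of Cxcl10 (chr5:92346638-92348889, minus strand; GENCODE vM21 on GRCm38 here and below), which encodes an interferon-induced chemokine. Cxcl10 stood at 66.5 CPM in liver and 9.40 in spleen, a 7.08-fold difference (5.74 to 8.79). It came from few cells: 58.5% of its liver UMIs and 57.1% of its spleen UMIs lay in 10 cells. Ccr3 (chr9:124021972-124031689), the receptor for eotaxins, was at 28.1 CPM in liver and 4.996 in spleen, 5.61-fold higher (4.15 to 7.66). It was 10.3-fold higher without the cells that held 2 or more UMIs of other lineages, a limit that left 746 liver and 2138 spleen cells, mostly because Ighm was among those genes. With Ighm, Cd79b, Cd8b1, Pecam1 and Ly6c2 not counted, a narrower limit chosen after seeing the data, 1396 and 3713 cells remained and Ccr3 was 5.86-fold higher. The lowest Ccr3 ratio over the alternatives was 4.43, in cells thinned to 1000 UMIs. Cebpb, a transcription factor induced by stress and cytokines, stood at 34.4 CPM against 7.46 (4.61-fold, 3.56 to 5.98). Lmna, the nuclear lamina protein lamin A/C, was at 43.5 against 10.1 CPM (4.32-fold, 3.46 to 5.42). Lgals3, the lectin galectin-3, was at 68.9 against 16.7 CPM (4.13-fold, 3.47 to 4.92). For these 5 genes the counting intervals of the ratio lay wholly above 3.

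Receptors of homing were largely higher in liver. Of 19 chemokine and egress receptors, 16 were measured at 10 CPM or more, 6 reached 2-fold higher in liver and none 2-fold lower (Ccr8 stood just at the limit), and 13 lay above 0, with a median log2 ratio of 0.81. Ccr2, which binds the monocyte chemoattractant Ccl2, was at 145 CPM in liver and 35.9 in spleen (4.04-fold, 3.58 to 4.55). Cxcr6, a receptor for Cxcl16, which liver sinusoids display, was at 19.6 and 5.29 CPM (3.70-fold, 2.68 to 5.12). Over the alternatives the Cxcr6 ratio ran from 2.51 in cells thinned to 1000 UMIs to 6.54 with no limit on Foxp3. Gpr15, a receptor for homing to the colon, was at 44.4 and 13.4 CPM (3.31-fold, 2.69 to 4.06). Ccr10, a skin homing receptor, was at 10.4 and 1.57 CPM, with 66.7% of the liver UMIs in 10 cells. Its ratio of 6.67 ranged from 3.51 to 11.7 over the alternatives. The 3 receptors below 0 were Ccr8, common on Treg cells of skin and tumours, at 27.2 CPM in liver and 54.4 in spleen, Cxcr5, the follicle receptor, at 15.9 and 25.6, and Gpr183, at a log2 ratio of -0.28.

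Integrins and adhesion molecules pointed the same way, with 15 of 19 measured members above 0, 4 at least 2-fold higher, none at least 2-fold lower and a median of 0.61. Itgae (CD103), which binds E-cadherin on epithelia, stood at 109 CPM in liver and 35.9 in spleen (3.04-fold, 2.68 to 3.46). In cells thinned to 1000 UMIs Itgae was 2.16-fold higher, its lowest ratio among the alternatives. Itgb1, the shared beta chain of the matrix-binding integrins, was at 459 and 227 CPM (2.03-fold, 1.92 to 2.14). Icam1 and Itgb3 were at 2.004-fold and 2.27-fold. Icam1 stood under 2-fold in 12 of 14 alternatives, Itgb1 in 6 and Itgb3 in 2, at 1.64, 1.84 and 1.89 at the lowest. Ccr7, a receptor of lymphoid recirculation, was also higher in liver, at 248 CPM against 180 in spleen (1.38-fold).

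Effector genes were higher in liver in 16 of 19 measured cases, with 8 at least 2-fold higher, none at least 2-fold lower and a median of 0.97. S100a4 (chr3:90603771-90606045), a calcium-binding protein of motile and memory T cells, was at 631 CPM in liver and 197 in spleen (3.21-fold, 3.04 to 3.38). A predicted gene lies on the same strand there, so their reads may be split. Gzmb, the protease granzyme B, was at 71.3 and 22.5 CPM (3.18-fold, 2.71 to 3.73), with 7.01-fold under the wide and 3.42-fold under the narrower limit on other-lineage UMIs. The lowest Gzmb ratio was 2.935, without the cells of the highest doublet scores. Fgl2, a secreted suppressor protein of Treg cells, was at 68.1 and 20.5 CPM (3.32-fold, 2.81 to 3.92). Prdm1 and Id2, transcription factors of effector differentiation, were at 2.33-fold and 2.17-fold, and at 1.91-fold each when cells were thinned to 1000 UMIs. Nkg7, a granule protein, was at 43.9 CPM in liver and 62.0 in spleen, so granule genes did not all lie on the same side. Il10 was below 10 CPM in both libraries, at 5.87 and 4.03.

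Among tissue repair genes, 9 of 11 measured members were above 0, 4 were 2-fold or more higher and 1 (Penk) 2-fold or more lower, with a median of 0.58. Il1rl1, the receptor for the alarmin IL-33, was at 30.01 CPM in liver and 7.16 in spleen (4.19-fold, 3.21 to 5.50). Il18r1, part of the IL-18 receptor, was at 44.6 and 20.9 CPM (2.14-fold, 1.77 to 2.57) and Il9r at 18.7 and 5.67 (3.30-fold, 2.40 to 4.55). Il18r1 was under 2-fold in 3 of 14 alternatives, at 1.92-fold at the lowest. Rora, a nuclear receptor of tissue lymphocytes, was at 117 and 43.6 CPM (2.69-fold, 2.39 to 3.03). Areg, the repair factor amphiregulin, was at 14.4 and 11.7 CPM, with a ratio of 1.23 whose interval held 1 (0.905 to 1.64). Penk, which encodes the enkephalin precursor, lay the other way at 38.5 and 92.9 CPM. Penk was 2.41-fold lower in liver over all cells, and 5.56-fold lower without the 10 highest cells of each library. Those 10 cells held 71.7% of its UMIs in liver but 34.9% in spleen, so leaving them out lowered the liver level more. Regulators of helper lineages were above 0 in 7 of 8 cases with a median of 0.82. Tbx21 (17.2 and 7.31 CPM) and Rora were among the 3 at least 2-fold higher, Tbx21 at 1.88-fold without the 10 highest cells, while Gata3, at 173 and 134 CPM, was 1.29-fold higher.

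**Figure D2:**
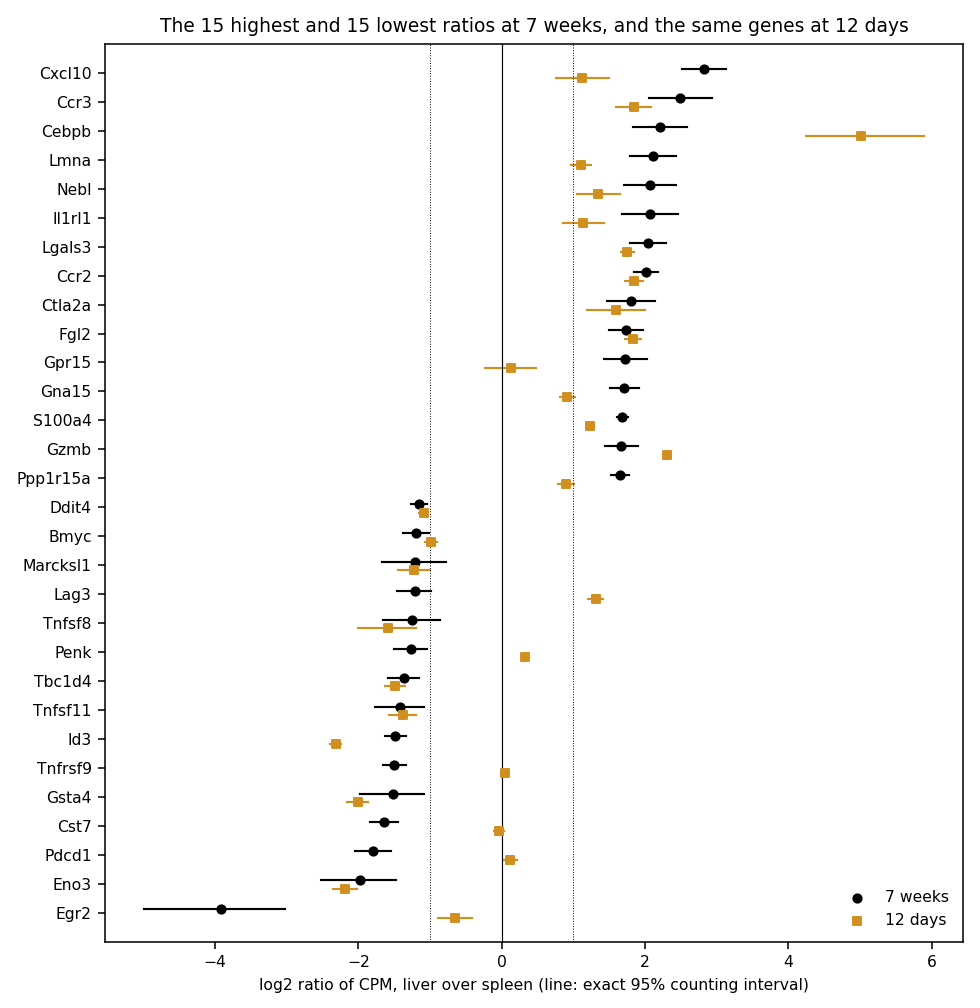
Ratio of CPM, liver over spleen (x axis, log2), of the 15 highest and 15 lowest genes at 7 weeks (black circles) and of the same genes at 12 days (orange squares), with lines for exact 95% counting intervals. All 15 genes high at 7 weeks also lay above 0 at 12 days, whereas Lag3 lay at -1.22 at 7 weeks and at 1.31 at 12 days.

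The 5 lowest ratios under the same limits were those of Egr2, Eno3, Pdcd1, Cst7 and Gsta4, genes of different roles. Egr2 (chr10:67535475-67542188), a transcription factor induced by T cell receptor (TCR) signals through calcium, had 10 UMIs in liver and 440 in spleen. This was 2.17 CPM (1.04 to 3.999) against 32.8 (29.8 to 36.0), 15.1-fold lower in liver (8.13 to 31.7). It was 6.84-fold lower without the cells with other-lineage UMIs, the smallest difference among the alternatives that gave a value, and 13.8-fold lower under the narrower such limit. Eno3, a glycolytic enolase, was at 7.39 CPM in liver and 29.1 in spleen, 3.93-fold lower (2.77 to 5.76), and 2.36-fold lower in thinned cells. Gsta4, a glutathione transferase, was at 10.4 and 29.8 CPM, 2.85-fold lower (2.11 to 3.93). Pdcd1, the inhibitory receptor PD-1, was at 31.3 CPM in liver and 108 in spleen, 3.46-fold lower (2.91 to 4.13). Tnfrsf9, the costimulatory receptor 4-1BB, was at 80.9 and 228 CPM, 2.82-fold lower (2.53 to 3.15). Lag3, an inhibitory receptor for MHC class II, was at 37.6 and 87.4 CPM, 2.32-fold lower (1.98 to 2.74). Cd160 was at 1.52 and 10.8 CPM from 7 and 145 UMIs, 7.10-fold lower (3.36 to 17.98), and 2.44-fold lower with no limit on Foxp3. Cd83 was at 61.5 and 132 CPM. These 5 receptors were the members of the list of 22 measured inhibitory and costimulatory receptors at least 2-fold lower in liver, and none was 2-fold higher. The other members differed by less than 2-fold, the median was -0.13 and 10 of 22 were above 0. Ctla4 stood at 408 CPM in liver and 329 in spleen, Icos at 296 and 201, and Tigit at 260 and 190.

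Of 18 measured genes that respond to TCR signals, 11 lay below 0, with a median of -0.25. Egr1 had 228 UMIs in liver and 1274 in spleen, 1.92-fold lower (1.66 to 2.22), and 1.49-fold lower in cells thinned to 1000 UMIs. Nr4a1, the immediate target often used to read TCR signal strength, was at 64.8 and 116 CPM, 1.79-fold lower (1.58 to 2.04). With each cell weighted equally, Nr4a1 was 1.31-fold lower. In cells thinned to 1000 UMIs, 5.56% of liver cells (4.40 to 6.91) and 6.09% of spleen cells (5.35 to 6.91) held a Nr4a1 UMI, so these shares overlapped. Egr3 had 3 UMIs in liver and 65 in spleen, 7.43-fold lower with an interval of 2.43 to 37.0. Tnfaip3, an inhibitor of NF-kB, was the exception at 2-fold, at 179 and 77.4 CPM (2.31-fold higher, 2.10 to 2.53), and Cd69 was at 362 and 238. Other genes with low ratios have different roles. Id3, an inhibitor of E proteins, was at 92.0 CPM in liver and 257 in spleen, 2.79-fold lower (2.53 to 3.10). Cst7, a protease inhibitor, was at 51.1 and 159 CPM, 3.11-fold lower (2.72 to 3.58). Tnfsf11, the ligand RANKL, was at 17.2 and 45.9 CPM, 2.67-fold lower (2.11 to 3.42). Ddit4, an inhibitor of mTORC1, was at 178 and 396 CPM, 2.23-fold lower (2.07 to 2.40). Marcksl1 and Tnfsf8 were 2.30-fold and 2.38-fold lower, but each was under 2-fold in 3 of 14 alternatives, down to 1.83-fold and 1.48-fold in cells thinned to 1000 UMIs. Follicular genes had 3 of 9 measured members at least 2-fold lower (Pdcd1, Tox2 and Izumo1r), 6 below 0 and a median of -0.39.

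Immediate early genes outside the Egr and Nr4a families were mostly higher in liver. In the list of AP-1 and immediate early genes, 18 of 22 measured members lay above 0, 7 were at least 2-fold higher and none was 2-fold lower, with a median of 0.55. Fos, a subunit of AP-1, was at 582 CPM in liver and 204 in spleen (2.85-fold, 2.70 to 3.004). Its partners Junb and Jun were at 1382 against 732 CPM (1.89-fold) and 388 against 229 CPM (1.70-fold). Klf6 was at 370 and 140 CPM (2.64-fold, 2.47 to 2.82), the phosphatase gene Dusp1 at 419 and 197 (2.13-fold) and the mRNA decay factor Zfp36 at 830 and 393 (2.11-fold). Ppp1r15a, which reverses the integrated stress response, was at 232 and 73.6 CPM (3.15-fold, 2.89 to 3.44). Of 14 measured heat shock genes 4 were above 0 and the median was -0.20, with Hsp90ab1 at 2545 and 3153 CPM. The stress-inducible Hspa1b had the highest ratio of that list, at 19.6 and 12.4 CPM (1.58-fold, 1.21 to 2.06), and lay above 1 in all 14 alternatives, the same direction as Fos. Its near-identical copy Hspa1a was at 14.4 and 11.3 CPM. Hspa1a was lower in liver in 2 of 14 alternatives, at a log2 ratio of -0.44 without the 10 highest cells. At 12 days Hspa1a was at 0.155 and 0.136 CPM and Fos at 161 and 88.2, so both stood lower there than at 7 weeks in each tissue. The median mitochondrial share given above was lower in liver. The part of these values in the ratios of immediate early genes was not tested.

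**Figure D3:**
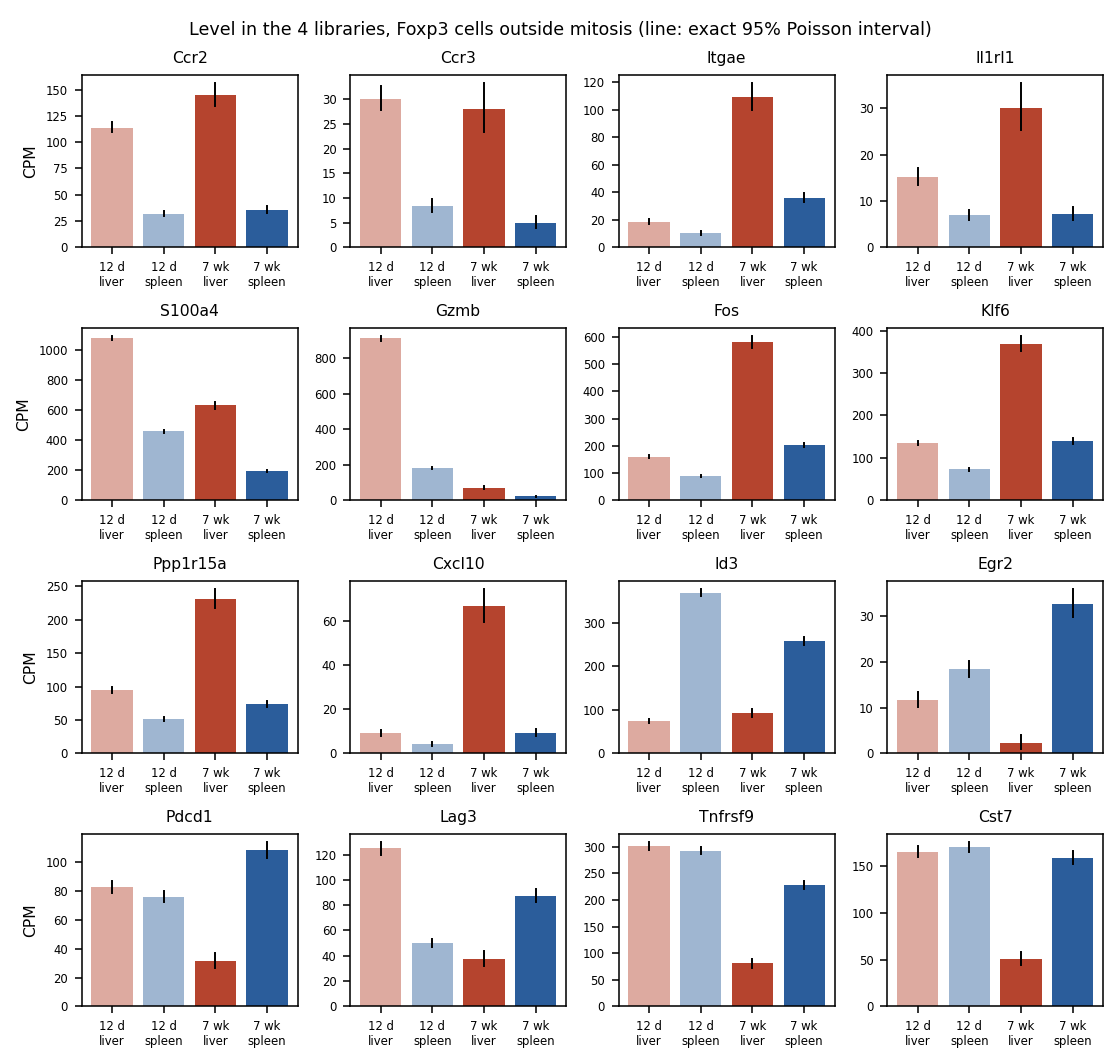
Level (y axis, CPM, from 0) of 16 genes in Foxp3 cells outside mitosis of the 12-day liver and spleen (pale bars) and the 7-week liver and spleen (full colour), with exact 95% Poisson intervals. Fos, Klf6 and Ppp1r15a are highest in 7-week liver, and Cst7, Pdcd1 and Tnfrsf9 are lower in 7-week liver than in the other 3 libraries.

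Interferon-induced genes lay higher in liver as a group, most of them by less than 2-fold. All 37 measured members of the type I interferon list lay above 0, against 51.8% of all genes, and the counting intervals of 31 lay wholly above 1, against 22.4% of all genes. Their median log2 ratio was 0.55, and it stayed between 0.40 and 0.58 over the alternatives, the lowest being without the 10 highest cells. The 4 members at 2-fold were Oas3 (24.1 CPM in liver and 8.28 in spleen), Ifit3b (36.8 and 12.8), Rsad2 (21.1 and 7.68) and Ifit3 (44.4 and 18.6). Rsad2 and Ifit3 were at 1.90-fold and 1.71-fold without the 10 highest cells. Isg15, a ubiquitin-like protein, was at 187 and 126 CPM (1.48-fold, 1.37 to 1.61). All 16 measured interferon-inducible GTPases, which act against intracellular microbes, were above 0 with a median of 0.79. Iigp1 was at 134 and 59.2 CPM (2.26-fold, 2.03 to 2.51; 1.63-fold in thinned cells), Gbp2 at 161 and 88.4 (1.82-fold) and Irgm1 at 110 and 61.7 (1.78-fold). Ifit3 and Ifit3b, and Tgtp1 and Tgtp2, are near-identical copies whose counts can be split between them. Genes of MHC class I presentation were closer to equality, with 12 of 15 above 0 and a median of 0.17.

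Promoter sequences of the interferon genes and of the genes with the highest ratios are shown for the letters they share. The letters were not used to choose genes, but the interferon lists were made of genes known to be interferon-induced. A total of 7 motifs was searched on both strands in 26 gene lists and the 2 sets of 15 genes, and the 2 described here were picked after their shares were seen. The others were TTCNNNGAA, TGACGTCA, CACCC, the palindromic glucocorticoid response element and the CArG box. The sequences are the 250 bases before the transcript start from RefSeq on GRCm38.p6, written 5′ to 3′ on the gene's strand, and capitals mark matches to the core of the interferon-stimulated response element (ISRE; GAAA, any 2 bases, GAAA) on either strand. Isg15 (chr4:156200819-156201068, minus strand) has 3 overlapping matches, Ifit3 (chr19:34583279-34583528, plus strand) has 2 on the other strand, and Irgm1 (chr11:48871421-48871670, minus strand) has 2 that overlap. Ifit3 and Irgm1 each also hold 1 TGANTCA match, left in lower case.
Isg15: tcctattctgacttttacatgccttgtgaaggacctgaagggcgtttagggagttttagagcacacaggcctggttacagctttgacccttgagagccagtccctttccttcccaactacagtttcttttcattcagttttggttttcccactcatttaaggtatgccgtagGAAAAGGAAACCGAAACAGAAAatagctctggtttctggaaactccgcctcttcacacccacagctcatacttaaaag
Ifit3: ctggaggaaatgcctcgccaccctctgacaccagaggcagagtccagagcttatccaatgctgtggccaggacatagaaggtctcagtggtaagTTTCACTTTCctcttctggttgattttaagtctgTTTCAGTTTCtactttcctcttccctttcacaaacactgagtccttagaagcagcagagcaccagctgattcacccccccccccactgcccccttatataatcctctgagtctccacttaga
Irgm1: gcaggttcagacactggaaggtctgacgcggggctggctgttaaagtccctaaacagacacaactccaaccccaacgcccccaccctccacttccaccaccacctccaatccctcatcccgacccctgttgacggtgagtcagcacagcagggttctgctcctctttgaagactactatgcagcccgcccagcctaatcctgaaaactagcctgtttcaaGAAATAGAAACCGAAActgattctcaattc
In the 300 bases from 250 before to 50 after the start, this core was found in 19 of the 29 type I interferon genes with a promoter in the table (65.5%) and in 9 of 10 GTPases (90%). The core was found in 4.30% of the 6118 matched genes at 10 CPM or more and in 3.99% of all 27025 genes with a promoter. Counted per single promoter, it was in 3.44% of all 32851 of that length. The high share in the interferon lists comes with how they were made and does not depend on the ratios of liver over spleen.

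The AP-1 letters TGANTCA, which read the same on both strands, were looked for in the same windows. They were found in 8 of the 15 genes with the highest ratios (53.3%: Nebl, Lmna, Fgl2, Cxcl10, Ccr3, Ctla2a, Gzmb and Gpr15). Of the 15 genes with the lowest ratios, 12 had a promoter in the table and 2 held the letters (16.7%: Cst7 and Tnfrsf9). Of matched genes at 10 CPM or more 5.56% held them in any of their promoters, and of all 27025 genes with a promoter 8.97%. Counted per single promoter it was 7.81%. Genes with several promoters in the table, among them Nebl, Lmna, Ctla2a and Tnfrsf9, had more than 1 window in which to match. Capitals below mark TGANTCA, and in Cxcl10 (chr5:92348890-92349139, minus strand) also the ISRE core. Ccr3 (chr9:124021721-124021970, plus strand), Fgl2 (chr5:21372423-21372672, plus strand) and Gzmb (chr14:56262335-56262584, minus strand) were higher in liver, and Tnfrsf9 (chr4:150927749-150927998, plus strand, 1 of its 2 promoters in the table) was lower. The match of Cst7 crosses its start and is not shown.
Cxcl10: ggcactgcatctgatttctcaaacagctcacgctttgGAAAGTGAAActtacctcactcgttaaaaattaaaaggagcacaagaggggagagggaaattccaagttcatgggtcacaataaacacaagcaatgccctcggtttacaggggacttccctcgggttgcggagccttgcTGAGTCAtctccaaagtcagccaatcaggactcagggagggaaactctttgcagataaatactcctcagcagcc
Ccr3: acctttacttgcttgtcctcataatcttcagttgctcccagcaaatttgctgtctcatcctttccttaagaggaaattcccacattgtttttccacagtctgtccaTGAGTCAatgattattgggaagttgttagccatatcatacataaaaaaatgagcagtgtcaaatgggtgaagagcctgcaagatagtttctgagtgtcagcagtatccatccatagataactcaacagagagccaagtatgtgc
Fgl2: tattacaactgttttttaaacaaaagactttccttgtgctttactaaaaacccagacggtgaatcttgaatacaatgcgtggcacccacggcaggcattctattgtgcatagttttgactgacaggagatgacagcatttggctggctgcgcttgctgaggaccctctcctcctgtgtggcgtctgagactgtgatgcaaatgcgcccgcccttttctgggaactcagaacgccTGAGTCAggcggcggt
Gzmb: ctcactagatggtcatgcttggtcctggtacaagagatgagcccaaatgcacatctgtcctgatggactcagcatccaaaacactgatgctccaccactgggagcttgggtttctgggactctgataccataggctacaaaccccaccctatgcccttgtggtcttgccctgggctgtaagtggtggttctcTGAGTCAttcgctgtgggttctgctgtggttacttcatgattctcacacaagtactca
Tnfrsf9: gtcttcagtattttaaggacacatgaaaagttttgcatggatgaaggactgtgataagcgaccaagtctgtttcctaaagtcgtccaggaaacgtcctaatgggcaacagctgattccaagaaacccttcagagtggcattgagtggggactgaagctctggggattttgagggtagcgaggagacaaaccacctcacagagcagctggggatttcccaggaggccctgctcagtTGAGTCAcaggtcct
A match describes letters in a window and is neither a binding site nor a cause. Within the list of AP-1 and immediate early genes, 1 of 19 genes with a promoter held TGANTCA (5.26%), near the 5.56% of all expressed genes. In the effector list it was 4 of 11 (36.4%) and in the type I interferon list 8 of 29 (27.6%). Lists with medians near 0 also held it, NF-kB signalling in 4 of 15 genes (26.7%) and survival in 3 of 15 (20%). The resting list, with 12 of 15 measured members above 0, held it in 0 of 12. High shares were thus not limited to lists higher in liver.

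**Figure D4:**
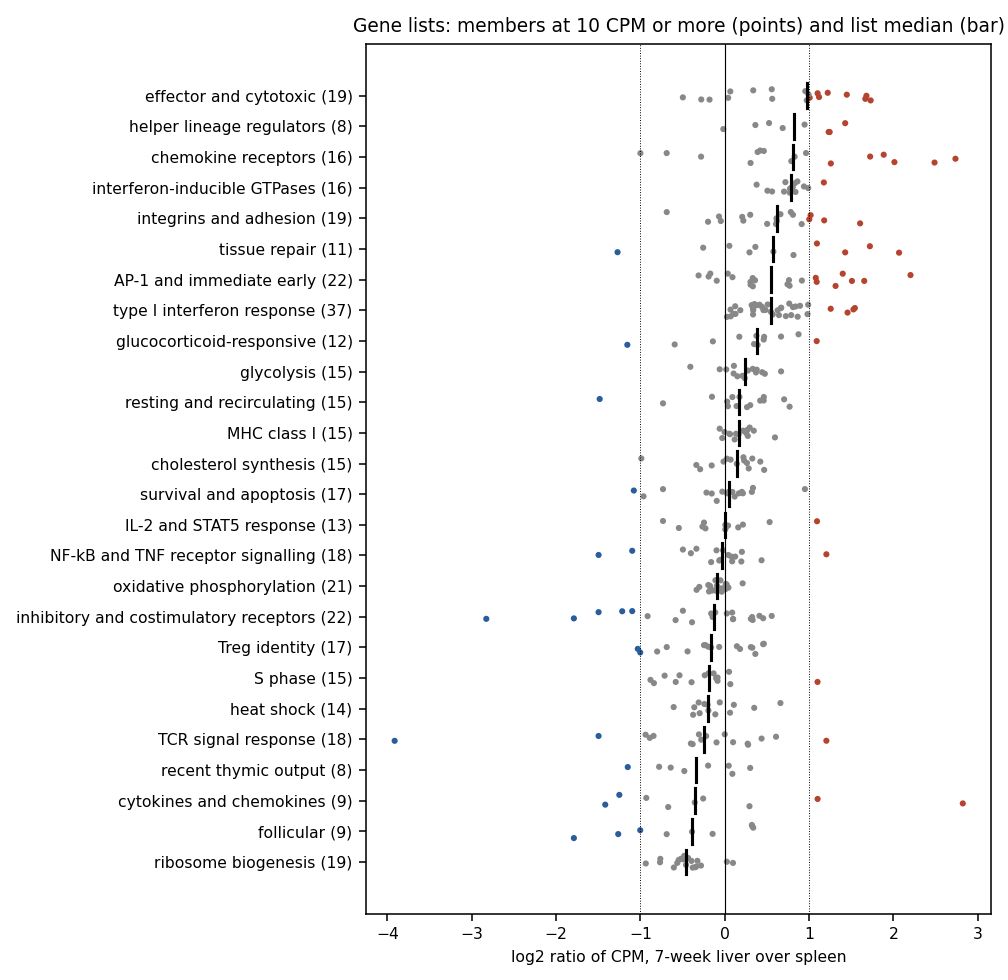
Ratio of CPM, 7-week liver over spleen (x axis, log2), of the members of 26 gene lists at 10 CPM or more in either library; each point is a gene (red at least 2-fold higher, blue at least 2-fold lower in liver), the bar is the list's median and the number measured stands in brackets. Effector genes have the highest median (0.97) and ribosome biogenesis genes the lowest (-0.46).

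Treg identity genes differed little in comparison. Of 17 measured members, 7 lay above 0 with a median of -0.16. Foxp3, which chose the cells and is no result here, is counted in the 17, the 7 and the median. Il2ra was at 229 CPM in liver and 269 in spleen, Ikzf2 at 437 and 501 and Cd4 at 202 and 178. Gpr83 (48.7 and 99.5 CPM) and Izumo1r, the folate receptor 4 gene (548 and 1096), were at least 2-fold lower in liver, and each was under 2-fold in 6 of 14 alternatives, down to 1.78-fold for Gpr83 and 1.87-fold for Izumo1r. Resting genes lay above 0 in 12 of 15 cases, with a median of 0.17, Klf2 at 995 and 584 CPM and Id3 as the member at least 2-fold lower. Genes of ribosome biogenesis were lower in liver in 17 of 19 cases, with all 17 intervals wholly below 1, against 18.5% of all genes, none 2-fold and a median of -0.46. Among them Mrto4 stood at 25.9 and 49.5 CPM, Fbl at 120 and 178, and Npm1 at 741 and 1002. Glycolysis genes were above 0 in 13 of 15 cases with a median of 0.24, and oxidative phosphorylation genes in 6 of 21 with a median of -0.09. Among cytokines, Ccl5 was at 259 and 121 CPM (2.15-fold, 1.99 to 2.32), and ranged from 1.88-fold in thinned cells to 3.71-fold under the wide limit on other-lineage UMIs (2.23-fold under the narrower). Lta and Tnf were at 32.8 against 62.6 and 27.8 against 44.3 CPM.

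Some genes at 2-fold belong to no list and are named here after their values were seen. Vim and Ahnak, of the cytoskeleton and membrane, had log2 ratios of 1.25 and 1.18, and Crip1 of 1.19. The PD-1 ligand genes lay on opposite sides, Cd274 at 1.04 and Pdcd1lg2 at -1.13. Ifngr1, a chain of the interferon gamma receptor, was at 1.05.

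To see whether these differences were there among cells of like resting state, each cell was thinned to 1000 UMIs, which left out 46 liver and 40 spleen cells. Cells were then split by their UMIs of 8 resting genes, among them Ccr7, Lef1, Tcf7, S1pr1, Klf2, Bach2 and Satb1, which get no value in this split. These are ranges of a score and not cell types. No resting UMI was found in 20.0% of liver cells (17.9 to 22.3) and 30.3% of spleen cells (28.9 to 31.8). Cells with 3 or more made up 38.1% (35.5 to 40.7) and 26.1% (24.7 to 27.5). Near that upper limit, 269 liver and 662 spleen cells had 2 such UMIs and 188 and 462 had 3. The liver library thus held relatively more cells with many resting UMIs.

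Effector genes lay above 1 in 17 of 19 cases in each range, and chemokine receptor genes outside the score in 11, 11 and 13 of 14, with a median fold of 2.06, 2.26 and 1.56. Of all 7660 genes 51.7%, 53% and 52.1% lay above 1, with 3%, 2.75% and 2.18% at 2-fold higher and 3.11%, 1.98% and 1.07% at 2-fold lower, in the order of the ranges. The 30 named genes were picked by their ratio over these same cells, so their direction within the ranges was largely set by that choice. The 15 genes with the highest ratios were at least 2-fold higher in each of the 3 ranges. Their median fold was 4.50, 4.82 and 3.21 in the same order, from cells with 0, through 1 to 2, to 3 or more resting UMIs. S100a4 was 3.41-fold, 3.61-fold and 2.95-fold higher, Ccr2 4.86-fold, 4.90-fold and 2.90-fold, and Fos 2.79-fold, 2.94-fold and 2.52-fold. The 15 genes with the lowest ratios lay below 1 in all 3 ranges, except Penk, which was at 1.27 (0.888 to 1.82) in cells with 3 or more. Of these 15, 14, 14 and 8 were 2-fold lower, with a median fold of 0.311, 0.362 and 0.459, so fewer reached 2-fold in cells with many resting UMIs. Pdcd1 was 2.92-fold, 3.12-fold and 3.05-fold lower, and Id3 3.47-fold, 2.76-fold and 2.71-fold lower. Lag3 was 2.11-fold and 2.29-fold lower in the first 2 ranges and 1.37-fold lower (0.941 to 2.02) in the third.

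Ratios of interferon genes were lower in cells with 3 or more resting UMIs, and so were those of several other lists. Of 37 type I interferon genes, 37, 37 and 25 lay above 1, with a median fold of 1.69, 1.64 and 1.07. Of 16 GTPases, 16, 16 and 10 did, with a median fold of 2.40, 1.94 and 1.12. Isg15 was at 317 CPM in liver and 147 in spleen among cells with no resting UMI (2.15-fold, 1.87 to 2.47), but at 80.0 and 105 among cells with 3 or more, 1.31-fold lower (1.07 to 1.62). Gbp2 went from 2.40-fold (2.03 to 2.83) to 1.23-fold (1.03 to 1.48). The interval of the last range lay wholly below that of the first in 17 of 37 type I interferon genes, Isg15 among them, and overlapped it in the other 20, such as Ifit3, Oas3 and Rsad2. It lay below in 14 of 16 GTPases, Gbp2 among them, and in 200 of all 7660 genes (2.61%). MHC class I genes went from 15 of 15 above 1 to 6 of 15, with 9 intervals apart. IL-2 and STAT5 response genes went from 11 to 2 of 13, with 6 intervals of the last range below the first and 1 above. Cholesterol synthesis genes went from 12 to 2 of 15, but only 2 intervals lay apart. NF-kB genes stood at 12, 4 and 7 of 18, lowest in the middle range. The median fold of glycolysis genes went from 1.37 to 1.03, with 7 of 15 intervals apart. The lower ratios were thus not limited to interferon genes. No test of the difference between ranges was made, since each range holds 1 library per tissue.

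**Figure D5:**
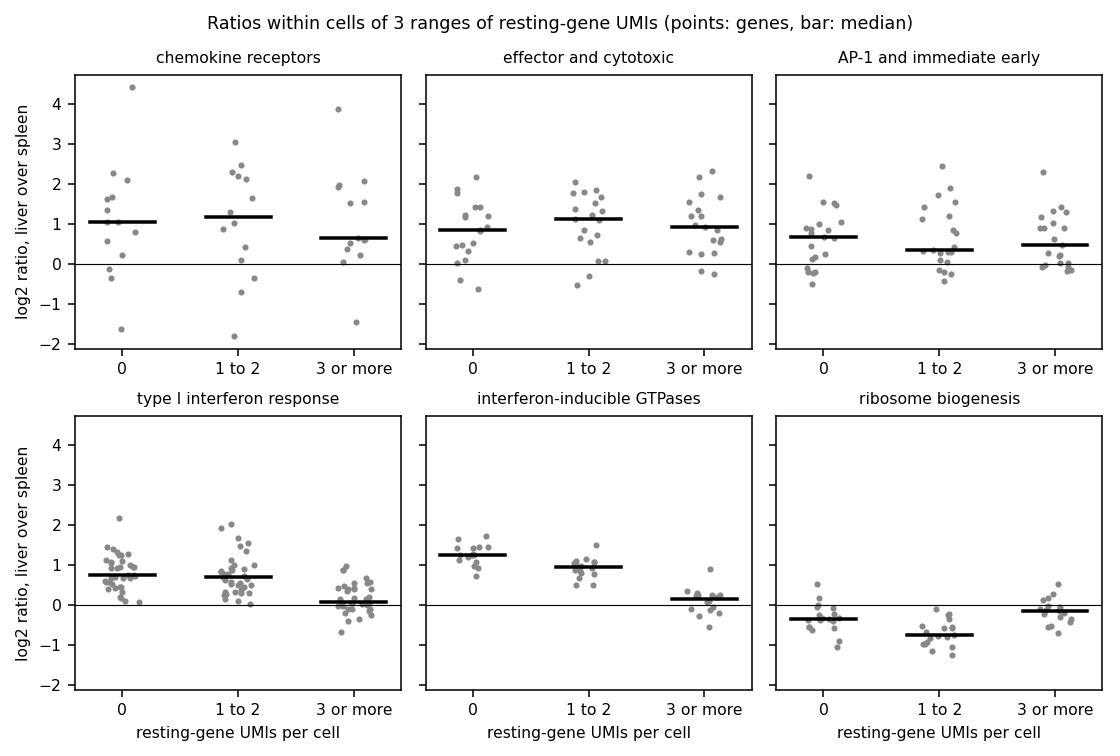
Ratio of CPM, 7-week liver over spleen (y axis, log2), of the members of 6 gene lists within cells that held 0, 1 to 2, or 3 or more UMIs of the 8 resting genes (x axis); points are genes and bars medians. The medians of the 2 interferon lists are near 0 in cells with 3 or more resting UMIs, while those of effector and chemokine receptor genes stay above 0 in all 3 ranges.

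Shares of cells with a UMI were compared in cells thinned to 1000 UMIs. No cell type that lacks these genes could serve as a background, since 0 liver barcodes and 6 spleen barcodes held no Cd3 UMI and 5 or more UMIs of other lineages, so the shares are given without a level for free RNA. An S100a4 UMI was found in 28.1% of liver cells (25.7 to 30.5) and 10.5% of spleen cells (9.54 to 11.5), and unthinned in 40.6% and 17.8%. A Fos UMI was found in 38.2% (35.6 to 40.9) and 18.5% (17.3 to 19.8), and unthinned in 66.3% and 39.5%. For Isg15 the shares overlapped, at 8.85% (7.39 to 10.5) and 9.22% (8.31 to 10.2), although its summed level was higher in liver. Of the Isg15 UMIs, 27.8% in liver and 10.2% in spleen lay in 10 cells. A Pdcd1 UMI was found in 2.997% (2.16 to 4.04) and 7.11% (6.31 to 7.98), unthinned in 6.93% and 19.3%.

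In both tissues S100a4 was found more often in cells with a Ccr2 UMI, as a description of cells that share a library. Of 128 liver cells with a Ccr2 UMI, 62.5% (53.5 to 70.9) also held S100a4, against 24.5% (22.1 to 27.0) of the other 1240. In spleen this was 63.4% (53.2 to 72.7) of 101 cells against 9.04% (8.12 to 10.0) of 3641. The share among Ccr2 cells was thus nearly equal in both tissues, and among cells without a Ccr2 UMI it was higher in liver. Unthinned, a Ccr2 UMI was found in 21.85% of liver and 6.08% of spleen cells, against 9.36% and 2.70% in thinned cells. Cells that lost their Ccr2 UMIs by thinning are thus counted as without, relatively more of them in liver. Their part in the difference was not tested. A Fos UMI was held by 34.4% (26.2 to 43.3) of liver Ccr2 cells and 38.6% (35.9 to 41.4) of the others, so Fos was not more frequent in them.

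Set beside the 12-day libraries, which share no sample with the 7-week ones, 25 genes passed 2-fold in favour of liver at both ages, 29.4% of the 7-week list and 23.4% of the 12-day list of 107 (2.17% of 4940 genes). In favour of spleen 10 genes passed at both ages, 37.0% of the 7-week list and 21.3% of the 12-day list of 47 (0.951%). All 15 genes with the highest ratios lay above 1 at 12 days too, where 49.9% of genes did, Ccr2 at 114 CPM in liver and 31.6 in spleen and Ccr3 at 30.1 and 8.41. Gpr15, at 6.75 and 6.20 CPM, differed by less than counting error there. Of the 15 with the lowest ratios 11 lay below 1 at 12 days, against 50.1% of genes, among them Id3 (74.0 and 369 CPM), Eno3 (17.98 and 81.6) and Ddit4 (150 and 319). The 4 others were Pdcd1 (82.7 and 76.1 CPM), Tnfrsf9 (301 and 292), Penk (330 and 262) and Lag3 (125 and 50.2). Resting genes had a median log2 ratio of -0.88 at 12 days, against 0.17 in the 7-week libraries. No test was made between the ages.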

How the data were processed

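The authors deposited raw UMI counts per gene and barcode, and per the file headers Cell Ranger 4.0.0 made them. The submitters' processing notes name mm10 and Seurat 4.0.2, without a role for the latter, and for the annotation release a name was not given in the sources used here. Receptor sequences were not analysed here. The 7-week liver and spleen (1 library each) were compared, with the 12-day libraries beside them. The cells, genes and lists were chosen with earlier results of these data known.

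UMIs were summed over cells and scaled to CPM over all genes (Python 3.11.15, numpy 2.4.6, pandas 2.3.3). Intervals are Poisson for levels, conditional binomial for ratios and Clopper-Pearson for shares (scipy 1.17.1), after a check on simulated data. For the 30 named genes the interval bound lay a median 14.1% from the level in liver and 9.76% in spleen.

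Named genes are the 15 highest and 15 lowest ratios among genes that reach 25 CPM and 100 UMIs where they are highest. Receptor segment, ribosomal protein, mitochondrial, haemoglobin and unnamed genes and the 10 genes that chose the cells were left out. From each list, members at 10 CPM or more with the largest ratios were added, and a further set fixed by name. Some other members were named after their values were seen. Of 32285 features, 99.8% matched GENCODE vM21. Reads of Ctla2a, S100a4 and Tbc1d4 may be split with predicted genes that overlap them on the same strand. Doublets were kept, and removed in an alternative (Scrublet in scanpy 1.11.5) by the highest scores at the expected rate, 36 liver and 218 spleen cells, because the automatic threshold marked 0.413% and 0% of barcodes. TMM scaling used edgeR 4.0.16 in R 4.3.3. Figures used matplotlib 3.10.9. Some members of the lists are not reported here by name.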

Additional observations from a re-analysis of the deposited data

Results flagged for a closer look

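Lag3 lay on opposite sides of equality at the 2 ages. Its ratio of liver over spleen was 0.43 at 7 weeks (37.6 and 87.4 CPM) and 2.49 at 12 days (125 and 50.2 CPM). The difference between the ages was not tested, since there was 1 library for each age and tissue.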

How the results depend on the processing

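The counts of genes at 2-fold moved with the level asked for. They were 143 higher and 67 lower at 10 CPM, and 48 higher and 15 lower at 50 CPM, against 85 and 27 at 25 CPM. Over 14 other settings they ran from 57 to 89 higher and from 18 to 51 lower. The 51 came from totals without abundant gene classes, which moved the median log2 ratio of all genes to -0.06. The smaller totals also raised every CPM, so genes of lower level could pass the 25 CPM limit. The 57 came from leaving out the 10 highest cells of each gene. Of the 30 named genes, 30 kept their direction in every setting that gave a value and 28 stayed at 2-fold, while Marcksl1 and Tnfsf8 were each under 2-fold in 3 settings. These genes had been picked by their ratio in the main setting, from the same libraries, which favours this outcome. Egr2 has no value without the 10 highest cells, since 7 liver cells hold all its UMIs. Of 26 list medians, 21 kept their sign, and those of IL-2 and STAT5 response, NF-kB signalling, cholesterol synthesis, survival and S phase did not. Ratios of genes with few UMIs in liver are limited by depth. No paired analysis was possible because each group holds 1 library, and for the same reason no replicate could be left out.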
